A study of Mus musculus with 49 samples.

Results

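The translation initiation and elongation factor genes were followed across ways of isolating RNA from the medium spiny neurons (MSNs) in the nucleus accumbens of mice. The members were all autosomal protein-coding genes of the count table whose symbol begins with Eif and a digit from 1 to 6, or with Eef and 1 or 2. This gave 64 genes, among 20675 autosomal protein-coding genes and 52636 genes in the table. A further 12 genes with such symbols were left out because they are pseudogenes or other gene types or lie on a sex chromosome. All mice were C57BL/6J, and each library came from the tissue of 1 mouse. For whole cell-FACS, fresh tissue was digested with papain and cells were sorted for a cytoplasmic fluorophore under the Drd1 or Drd2 promoter, which the mice carried heterozygously (8 D1 and 6 D2 libraries, male). For nuclear-FACS, nuclei were sorted from frozen tissue of mice heterozygous for Thy1-loxPSTOPloxP-EGFP-F and either Drd1-cre or Drd2-cre, whose nuclear GFP depends on the Cre line and on the Thy1 promoter (6 D1 and 5 D2, male). For RiboTag, the HA-tagged ribosomal subunit of mice with Rpl22-loxPexon4loxP-exon4-HA and either Drd1-cre or Drd2-cre was immunoprecipitated from fresh tissue (6 D1 and 6 D2 male, 5 D1 and 5 D2 female). Method therefore goes with mouse line and tissue handling, and these cannot be told apart. The sources disagree on how many whole cell samples each cell type had. Here a column named as a repeat of D1 number 1 and one named as a lane of D2 number 3 were summed with those libraries. Between replicate columns the chi-square per gene was 1.05 for the lane and 9.55 for the repeat, against 22.2 to 112.5 for differently numbered columns, so only the lane was within sampling noise.

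Initiation factors load the initiator tRNA and the mRNA onto the small ribosomal subunit. eIF2 brings the initiator tRNA, its exchange factor eIF2B recharges it with GTP, and the eIF2 kinases shut it down under stress. The cap is bound by eIF4E, which the 4E-binding proteins block, while eIF4G is the scaffold and eIF4A the helicase that unwinds the leader. eIF3 is the large complex that bridges mRNA and subunit, and eIF5 and eIF5B act when the subunits join. During elongation eEF1A delivers tRNAs, eEF1B recharges eEF1A, and eEF2 moves the ribosome along. In adult neurons Eef1a2 is the predominant eEF1A gene, and Eif4a1 and Eif4a2 encode near-identical helicases. Both helicase genes carry small nucleolar RNA (snoRNA) genes in their introns, which are released when the pre-mRNA is spliced and stay in the nucleus.

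Total counts ran from 3701255 to 68777008 per library. The depth of a library sets its detection floor, and 3 counts corresponded to 0.0436 to 0.811 counts-per-million (CPM). The members together took 0.113 to 0.391% of the total in whole cell libraries, 0.0926 to 0.137% in nuclear ones and 0.0637 to 0.0808% in RiboTag ones. In RiboTag libraries the 10 most abundant genes held 85.0 to 88.3% of the total. Nuclear D1 numbers 1, 5 and 6 stood apart, with 60.9 to 66.9% of the total in 10 genes, against 20.3 to 32.5% in the other nuclear D1 libraries and 5.23 to 13.9% in nuclear D2. Olfactory and vomeronasal receptor genes, which are not used in striatum, served as a measure of background. Their counts per kilobase, carried over the spans of all genes, would make up 0.579 to 22.2% of the total in nuclear D1. In nuclear D2 this background estimate was 32.4 to 52.3%, in whole cell libraries 8.33 to 52.5% and in RiboTag libraries at most 0.0631%. Drd1 and Drd2 separated the libraries by label in every method. In the nuclear set, though, Adora2a and Pdyn did not. Summed over Drd2, Adora2a, Penk, Gpr6 and Sp9, nuclear D1 lay at 488 to 1254 CPM and nuclear D2 at 789 to 1409 CPM. Over Drd1, Pdyn, Tac1, Isl1 and Chrm4 they lay at 87.3 to 189 and 66.8 to 104 CPM. Both sums overlapped in nuclei, and neither did in whole cell libraries. The summed endothelial markers of the nuclear set lay at 44.5 to 356 CPM in D1 against 435 to 798 CPM in D2.

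The count of Eif4a2 (chr16:23107444-23114136, plus strand of GRCm38, ENSMUSG00000022884) holds reads of 5 annotated snoRNA genes, since fragments were counted over exons and introns and a fragment in overlapping genes was credited to each. These genes cover 640 of 6693 bases, or 9.56% of the span. They are shown here because their reads changed the apparent level of the host between methods. Capitals mark the C box TGATG within the first 15 bases with the D box CTGA within the last 15, or ACA within the last 8 bases, and Snora81 as annotated holds neither. An annotated miRNA gene, Gm49346, shares 103 of its 106 bases with Snora81 and had no more counts than Snora81 in any of the 47 libraries, so it was left out of the share to avoid counting fragments more than once. Only the strand of the transcript was searched, and of 1483 annotated snoRNA genes 46.7% hold ACA there and 22.6% hold both boxes.
Snord2 (chr16:23108953-23109021): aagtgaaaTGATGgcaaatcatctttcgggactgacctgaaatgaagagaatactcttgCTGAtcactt
Gm24201 (chr16:23110383-23110507): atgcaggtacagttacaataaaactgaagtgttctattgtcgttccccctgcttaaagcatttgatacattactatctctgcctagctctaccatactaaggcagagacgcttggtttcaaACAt
Snora81 (chr16:23110756-23110933): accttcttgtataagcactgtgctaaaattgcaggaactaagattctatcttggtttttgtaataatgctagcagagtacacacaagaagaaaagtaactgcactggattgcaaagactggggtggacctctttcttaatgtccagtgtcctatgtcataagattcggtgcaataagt
Gm26447 (chr16:23111301-23111429): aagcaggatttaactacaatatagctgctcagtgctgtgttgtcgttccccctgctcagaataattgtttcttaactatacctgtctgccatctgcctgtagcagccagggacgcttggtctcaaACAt
Gm24616 (chr16:23111617-23111755): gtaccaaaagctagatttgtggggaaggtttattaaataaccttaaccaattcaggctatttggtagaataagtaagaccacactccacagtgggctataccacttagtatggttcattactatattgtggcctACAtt

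Eif4a1 (chr11:69666936-69672423, minus strand, ENSMUSG00000059796) holds 3 snoRNA genes over 7.85% of its span, marked in the same way and shown because they made up much of its nuclear count.
Gm24029 (chr11:69667834-69667976): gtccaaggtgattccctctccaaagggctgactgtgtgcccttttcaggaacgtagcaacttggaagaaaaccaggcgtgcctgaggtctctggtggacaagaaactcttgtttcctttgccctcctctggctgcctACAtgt
Gm25835 (chr11:69668852-69668995): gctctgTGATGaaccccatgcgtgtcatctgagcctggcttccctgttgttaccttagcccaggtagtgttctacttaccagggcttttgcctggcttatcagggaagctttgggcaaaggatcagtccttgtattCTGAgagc
Gm22988 (chr11:69669635-69669778): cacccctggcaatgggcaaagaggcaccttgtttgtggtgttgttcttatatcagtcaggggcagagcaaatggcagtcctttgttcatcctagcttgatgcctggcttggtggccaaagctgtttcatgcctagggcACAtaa

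The snoRNA genes made up about 33% of the Eif4a2 count in nuclei and almost none of it on tagged ribosomes. In nuclear D1 numbers 1 to 6 their share of the host count was 19.7, 42.1, 32, 45.2, 31.6 and 30.9%, a mean of 33.6% ± 9.10 (SD, n = 6). In nuclear D2 numbers 1, 2, 3, 5 and 7 it was 28.3, 34.4, 27.2, 31.5 and 43.5%, a mean of 33.0% ± 6.52 (SD, n = 5). The cell types overlapped fully, and the difference of -0.586 percentage points gave p = 0.870 in a two-sided exact permutation test. In whole cell D1 the share was low and even, from 1.73 to 3.03% with a mean of 2.26% ± 0.47 (SD, n = 8). The whole cell D2 libraries 1, 3 and 4 had 17.2, 20.3 and 25.4%, while numbers 2, 5 and 6 had 3.74, 3.05 and 3.59%. All 6 lay above every D1 library, number 5 only just. The whole cell difference of 9.96 points gave p = 0.000666, the smallest that exact permutation can give here, with an adjusted p of 0.002 over the 9 tests of this share. Numbers 1, 3 and 4 had 3.15 to 5.08% of their total in 10 genes and the other 3 had 20.2 to 54.5%, a difference whose part in the result was not tested. On tagged ribosomes of male mice the mean share was 0.157% in D1 and 0.074% in D2, an exact permutation p of 0.242 for the difference. In the 5 male RiboTag libraries with no snoRNA count, 3 counts would have been 0.222 to 0.366% of the host count, a limit that covers counting error only.

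**Figure D1:**
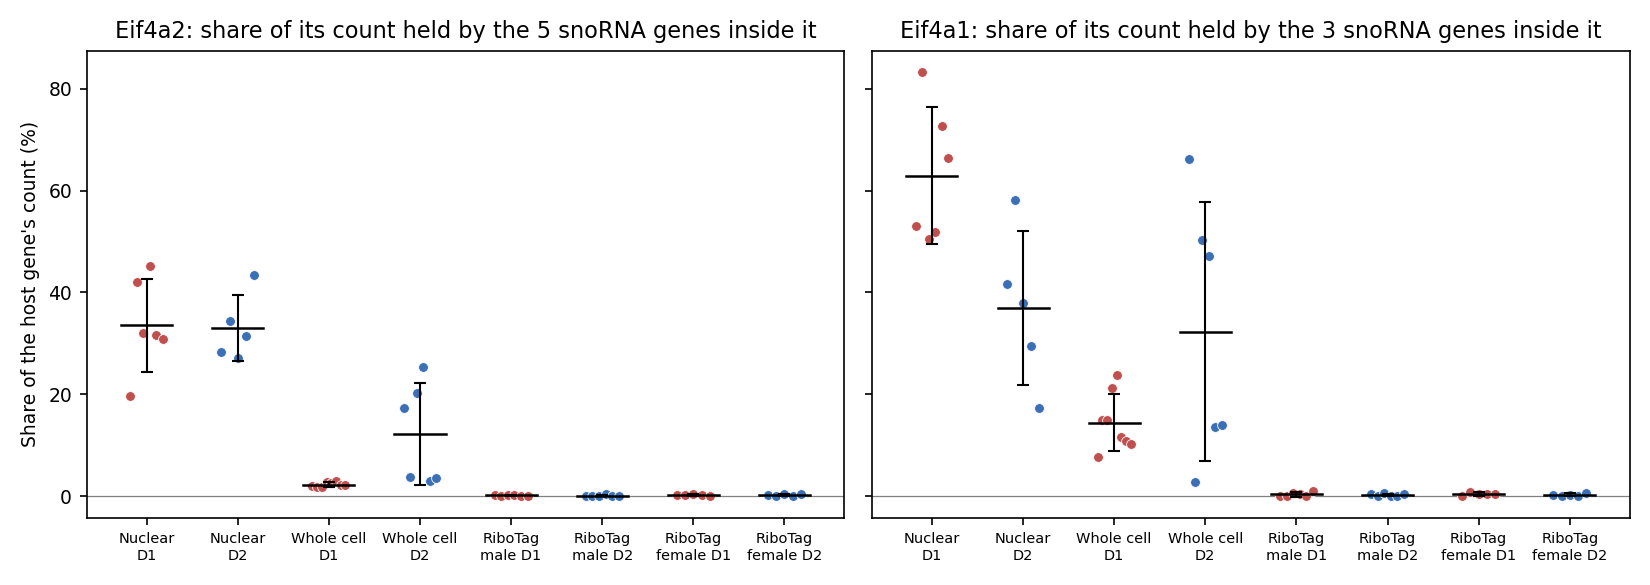
Share of the count of Eif4a2 (left) and Eif4a1 (right) that was assigned to snoRNA genes within them, in percent, by method and cell type. Points are libraries (red D1, blue D2), lines are means and bars are SD. For Eif4a2 the nuclear means lie highest at 33.6 and 33.0%, all RiboTag libraries are near 0, and the whole cell D2 libraries are spread most widely for Eif4a1.

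Nuclear libraries exceeded whole cell ones by 31.3 points in D1 and by 20.8 points in D2, and RiboTag lay below whole cell by 2.10 and 12.1 points. These 4 differences and the 2 between RiboTag and nuclear libraries had adjusted exact permutation p-values of 0.0020 to 0.0056. Snora81 supplied most of these reads, with 1152 of the 1693 snoRNA counts in nuclear D1, 682 of 1190 in nuclear D2 and 1458 of 1684 in whole cell D2. A fragment of the mature snoRNA cannot be told apart in these counts from a fragment of host pre-mRNA that crosses it. In Eif4a1 the share was higher still, at 63.0% ± 13.4 (SD, n = 6) for D1 nuclei and 36.9% ± 15.2 (n = 5) for D2 nuclei, against 14.4% ± 5.59 (n = 8) in whole cell D1. Whole cell D2 libraries ranged from 2.87 to 66.2% for Eif4a1. Small RNA genes lie within 18 of the 64 members. Eef1b2, the guanine exchange subunit of eEF1B, had 5.89% in D1 nuclei and 20.1% ± 15.3 (SD, n = 5) in D2 nuclei. Its Gm27390 lies in an exon of a transcript annotated for nonsense-mediated decay. That gene gave 22 of 75 small RNA counts in D1 nuclei and 36 of 154 in D2 nuclei. Eif5, whose product triggers GTP hydrolysis by eIF2, had 10.7% and 2.1%, and Eif4g2, a cap-independent relative of eIF4G, had 3.76% and 4.16%. In Eif3j1, Eif3j2, Eef1a1 and Eif4e the annotated small RNA gene lies in an exon and its reads cannot be separated from the mRNA. On tagged ribosomes of male mice that share was 10.4% in D1 and 9.83% in D2 for Eif3j1, 12.0% and 17.7% for Eif3j2 and 2.44% and 2.25% for Eef1a1, all above the share of Eif4a2. Eif3j2 had 19.1% ± 19.6 (SD, n = 8) in whole cell D1, on 13 of 90 counts, and 25.8% ± 25 (n = 6) in whole cell D2, on 7 of 45.

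With the snoRNA counts left in, the Eif4a2 level depended strongly on the method. Scaled by trimmed mean of M values (TMM) over all male libraries, it ranged from 19 to 186 CPM in whole cell D1, 33.0 to 153 in whole cell D2, 20.6 to 87.0 in nuclear D1, 3.39 to 12.1 in nuclear D2, 139 to 176 in RiboTag D1 and 149 to 166 in RiboTag D2. The RiboTag libraries were the tightest, and the nuclear D2 libraries lay below every other group. Averaged over cell types, Eif4a2 was lower in nuclear than in whole cell libraries by a log2 fold change of -2.09 ± 0.30 (SE; adjusted p = 1.38e-06, edgeR's quasi-likelihood test). It was higher in RiboTag than in whole cell libraries by 0.92 ± 0.27 on the log2 scale (adjusted p = 0.00205) and higher than in nuclear ones by 3.01 ± 0.32 (adjusted p = 5.18e-11). Subtracting the snoRNA counts widened these log2 differences to -2.53, 1.03 and 3.56. For Eif4a1 the nuclear and whole cell levels differed by 0.52 ± 0.30 on the log2 scale (adjusted p = 0.275) and after the subtraction by -0.11. Its RiboTag against whole cell log2 difference was 1.52 as counted and 2.08 after the subtraction. Eif4a3, the helicase of the exon junction complex, had log2 fold changes of -0.55 for nuclear against whole cell and 1.25 for RiboTag against whole cell.

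Per kilobase of exon, on the scale of all male libraries, Eef1a2 led in every group but nuclear D2. In RiboTag D1 Eef1a2 stood at 215 ± 7.05 CPM per kilobase (SD, n = 6), followed by Eef1a1 at 108 ± 6.75, Eef2 at 88.0 ± 4.24, the scaffold subunit gene Eif3c at 44.9 ± 3.06 and Eif4a2 at 29.8 ± 2.24. Each of these differed from the next by more than the larger SD, whereas Eif4g1 at 23.8 and Eif3a at 23.6 did not. Eif4a1 was at 7.96. RiboTag D2 kept the order at the top, with Eef1a2 at 198, Eef1a1 at 105 and Eif4a2 at 29.6 CPM per kilobase. In whole cell D1 Eef1a2 was at 28.9 ± 16.0 (SD, n = 8), Eif4a2 at 19.6 ± 12.0 and Eef1a1 at 17.7, and of 63 neighbouring pairs in that order 61 were within the larger SD of each other. Nuclear D1 was led by Eef1a2 at 34.3 ± 27.4 (SD, n = 6) and Eef1a1 at 23.4, with Eif4a2 at 9.58 ± 4.70, and there all 63 neighbours were within the larger SD. In nuclear D2 Eif3h led at 9.90 and Eif4g3 followed at 7.11, while Eef1a2 was at 3.83 and Eif4a2 at 1.42. Introns were counted too, so a level per kilobase of exon is raised for long genes such as Eif4g3, and more so in nuclei.

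The study asked how the method of isolation shapes the RNA that is seen, and the members were compared between methods beside all genes. Lower counts in nuclear than in whole cell libraries were found for 32 of 64 members and higher counts for 3, where 20.0% of all 29901 genes were called (7.23% higher and 12.8% lower; edgeR's quasi-likelihood test, Benjamini-Hochberg adjusted p of at most 0.05). The members' median log2 difference was -0.53, against -0.13 for all genes. The 3 higher members were Eif1, which selects the start codon (log2 0.99 ± 0.33), the eEF2 kinase gene Eef2k (0.42) and Eif4g3 (0.41 ± 0.11). Among the lower ones were Eif3j2 (-2.38), Eif4a2, the start codon factor Eif1b (-1.83) and Eef1b2 (-1.59), where Eif3j2 rests on 5 counts over the 6 nuclear D1 libraries. Values of Eif1, Eif5a, Eif3j1 and Eif3j2 are uncertain because of near-identical copies, and those of Eif2d, Eif2s2, Eif3m, Eif3d, Eif4e3, Eif4enif1, Eif2ak1 and Eef2k because other genes overlap them and strand was not used. By role, 10 of 14 eIF3 subunits, 4 of 5 genes of eIF4A, eIF4B and eIF4H, 5 of 9 eEF1 genes and 2 of 3 eIF4G genes were lower, and none of the 4 eIF2 kinases passed the test in either direction.

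Between RiboTag and whole cell libraries 43 members were higher and 12 lower, where 88.0% of all genes were called, 24.6% higher and 63.4% lower. The median over all genes was -1.91 on the log2 scale and that of the members 1.06, so the members stood 2.97 above it. Between RiboTag and nuclear libraries 49 were higher and 11 lower, against 90.2% of all genes called (26.2% higher, 64.0% lower), with medians of 1.64 for the members and -2.19 for all genes. With 55 and 60 of 64 called, the members were near the share of all genes in both comparisons and differed in direction. The background estimated from receptor genes, up to 52.5% of the total in sorted libraries and near 0 in RiboTag, moves with these comparisons. Its part was not tested. All 4 eIF1 genes, 11 of 14 eIF3 genes, all 5 genes of eIF4A, eIF4B and eIF4H and all 3 eIF4G genes were higher in RiboTag than in whole cell libraries. The eIF3 genes reached 14 of 14 against nuclear libraries. The log2 fold changes of RiboTag over whole cell libraries that were highest were those of Eif1 (4.48 ± 0.35), Eef1a1 (3.12 ± 0.34), Eif3j2 (2.96 ± 0.53) and Eef1a2 (2.85 ± 0.29). Over nuclear libraries they were those of Eif3j2 (5.34), Eef1a2 (4.18 ± 0.34), Eef1a1 (4.14 ± 0.39) and Eef2 (4.08).

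**Figure D2:**
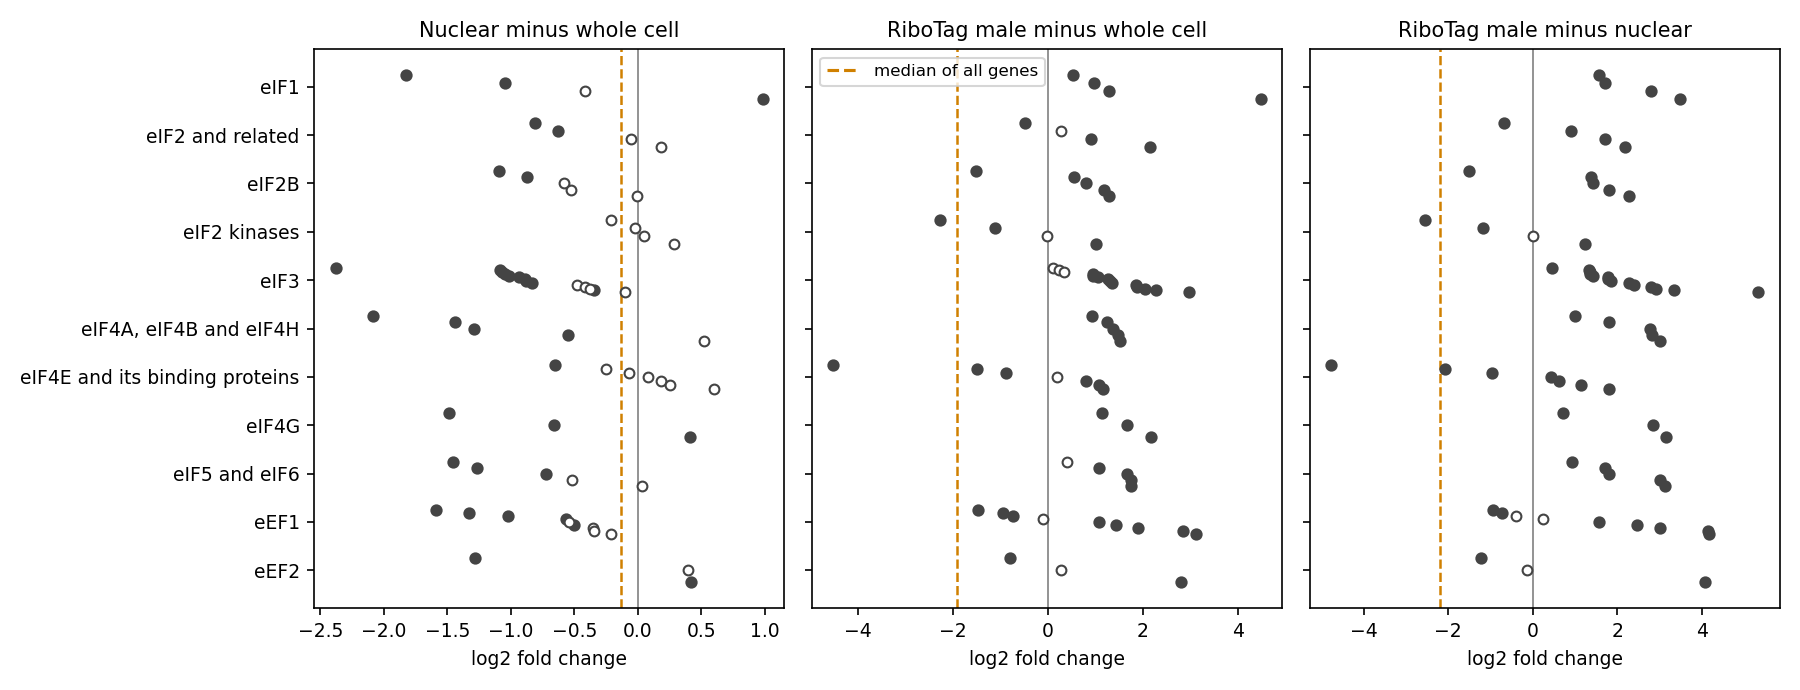
Log2 fold change of each member between methods, averaged over cell types, ordered by family. Filled points had an adjusted p of at most 0.05, open points did not, and the dashed line is the median of all genes tested (-0.13, -1.91 and -2.19). Eif4e1b, without RiboTag counts, is left out, and most members lie to the right of the dashed line in both RiboTag comparisons.

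The cap-binding genes, their inhibitors and the eIF2 kinases were mixed in direction. Of the 8 genes of eIF4E and its binding proteins 3 were higher and 4 lower in RiboTag than in whole cell libraries. Eif4e, which binds the cap, had a log2 fold change of 1.16, its relative Eif4e2 0.19 without passing the test, and Eif4e3 -0.88. The 4E-binding protein gene Eif4ebp1 was lower by -4.52 ± 0.62 on the log2 scale, with 7 counts over all 12 male RiboTag libraries, whereas Eif4ebp2 was higher by 0.80 ± 0.15. The cap-binding gene Eif4e1b, described mostly in oocytes, had 0 counts in all RiboTag libraries. Its pooled level was 0.524 CPM in whole cell and 0.981 CPM in nuclear libraries. This was at least 15.4-fold and 28.8-fold above the floor of 3 counts over the 12 male RiboTag libraries. It had 199 counts over 8 whole cell D1 and 83 over 6 D2 libraries on a span of 4462 bases. Receptor genes there ran at 0.903 to 6.63 counts per kilobase, so these folds hold background and are not expression differences alone. Counts of the other members lower in RiboTag can hold such background too, so their fold changes are not to be read as expression differences alone. In whole cell D1 and D2 libraries Eif4ebp1 had 716 and 340 counts on a span of 16346 bases. Eif2ak2 had 1322 and 997 on 30010 bases, and Eif2b3 had 3741 and 2730 on 67905 bases. Among the eIF2 kinases Eif2ak1 was higher in RiboTag than in whole cell libraries (1.02 ± 0.13), Eif2ak2 lower (-2.26 ± 0.27), Eif2ak4 lower (-1.12 ± 0.12), and Eif2ak3 had -0.02 ± 0.09. Eif2b3 was the eIF2B subunit that was lower, by -1.52 ± 0.14, with the other 4 higher. Against nuclear libraries Eif4ebp1 (-4.77 ± 0.63), Eif2ak2 (-2.55 ± 0.28) and Eif4ebp3 (-2.09 ± 0.52) were the lowest members with counts in RiboTag. For the hypusinated factor eIF5A the log2 fold changes of RiboTag over whole cell libraries were 1.67 for Eif5a and 1.08 for Eif5a2, and for the scaffold 2.18 for Eif4g1, 1.66 for Eif4g2 and 1.14 for Eif4g3.

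The nuclear levels were then compared between cell types, which addresses how well each method tells D1- from D2-MSNs. Of the 64 members 35 entered the nuclear test, which required an FPKM (CPM per kilobase of span) of at least 1 in at least 1 library, so a member low in one cell type could enter through the other. Lower counts in D2 were found for 12 members and higher counts for none, where 16.1% of 9228 genes were called and 10.4% were called lower. The members' median log2 difference, D2 minus D1, was -0.30, against 0.03 for all genes. Without the FPKM filter 33 of 63 members were called, 32 of them lower, where 26.2% of all genes were called. The TMM scale is set by the genes kept, and without this filter Eif4e2 went from above to below 0 on the same counts. These calls are therefore on another scale and add no support. In bulk libraries fewer cells of a type and less RNA per cell cannot be told apart.

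Eif4a2 was the clearest of these. Its TMM-scaled level within the nuclear set was 218, 164, 102, 99.1, 192 and 183 CPM in D1 numbers 1 to 6 and 45.4, 72.8, 59.7, 30.5 and 43.9 CPM in D2 numbers 1, 2, 3, 5 and 7. Every D1 library was above every D2 library, the log2 fold change was -1.65 ± 0.26 (adjusted p = 0.00923, edgeR's quasi-likelihood test) and D1 was 3.14-fold higher. Eif4a1 ran at 156, 183, 70.7, 87.7, 245 and 124 CPM in D1 and at 33.2, 62.2, 51.2, 26.3 and 33.1 CPM in D2. It did not overlap either and was 3.44-fold higher in D1 (log2 -1.78 ± 0.32, adjusted p = 0.00923). With the snoRNA counts subtracted the Eif4a1 difference shrank to -0.97 ± 0.25 on the log2 scale (adjusted p = 0.0214), and that of Eif4a2 was -1.66. Eif3a, the core eIF3 subunit, was at 275, 145, 126, 127, 222 and 197 CPM in D1 against 79.8, 99.5, 90.5, 72.0 and 111 CPM in D2, again without overlap and 2.02-fold higher in D1 (adjusted p = 0.0101).

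Several of the other members called, Eef1a1, Eef1a2 and Eef2 among them, were spread widely among the D1 libraries. Eef1a1 (chr9:78478449-78489151, minus strand) was at 346, 40.8, 45.2, 39.3, 225 and 377 CPM in D1 and at 29.9, 25.6, 31.4, 27.2 and 19.1 CPM in D2. The groups did not overlap (log2 -2.72 ± 0.60, adjusted p = 0.0116), and D1, 6.60-fold higher by the fit, had its 3 highest values in numbers 1, 5 and 6. Eef1a2 (chr2:181147653-181157014, minus strand) was at 369, 96.5, 73.7, 99.1, 375 and 281 CPM in D1 and at 42.5, 61.6, 48.1, 39.1 and 77.6 CPM in D2. D1 number 3 fell below D2 number 7 (log2 -2.01 ± 0.43, adjusted p = 0.0103). Eef2 was at 279, 71.8, 51.1, 44.8, 259 and 227 CPM in D1 and at 28.8 to 45.4 CPM in D2, with D1 number 4 inside the D2 range (log2 -2.06 ± 0.46, adjusted p = 0.0125). Eef1b2 (4.45-fold higher in D1), Eif5 (2.12-fold), Eif4g2 (2.53-fold), Eif1 (4.49-fold), Eif5a (2.34-fold) and Eef1g (1.58-fold) completed the 12, with adjusted p-values from 0.0101 to 0.0474. In fits that left out 1 library at a time, Eif1 was called in 9 of 11, failing without D2 number 1 or 5. Eif5a was called in 3 of 11, failing without D1 number 1, 5 or 6 or any D2 library, Eef1g in 2 of 11, failing without any library but D1 number 3 or 4, and the other 9 genes in all 11. Eif4e1b was the member farthest the other way, 2.50 on the log2 scale (adjusted p = 0.0573). It had 87 counts over the nuclear D1 libraries, 77 of them in 1 library and 3 libraries at 0, and 556 over nuclear D2. These counts can hold background, which was estimated higher in nuclear D2.

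**Figure D3:**
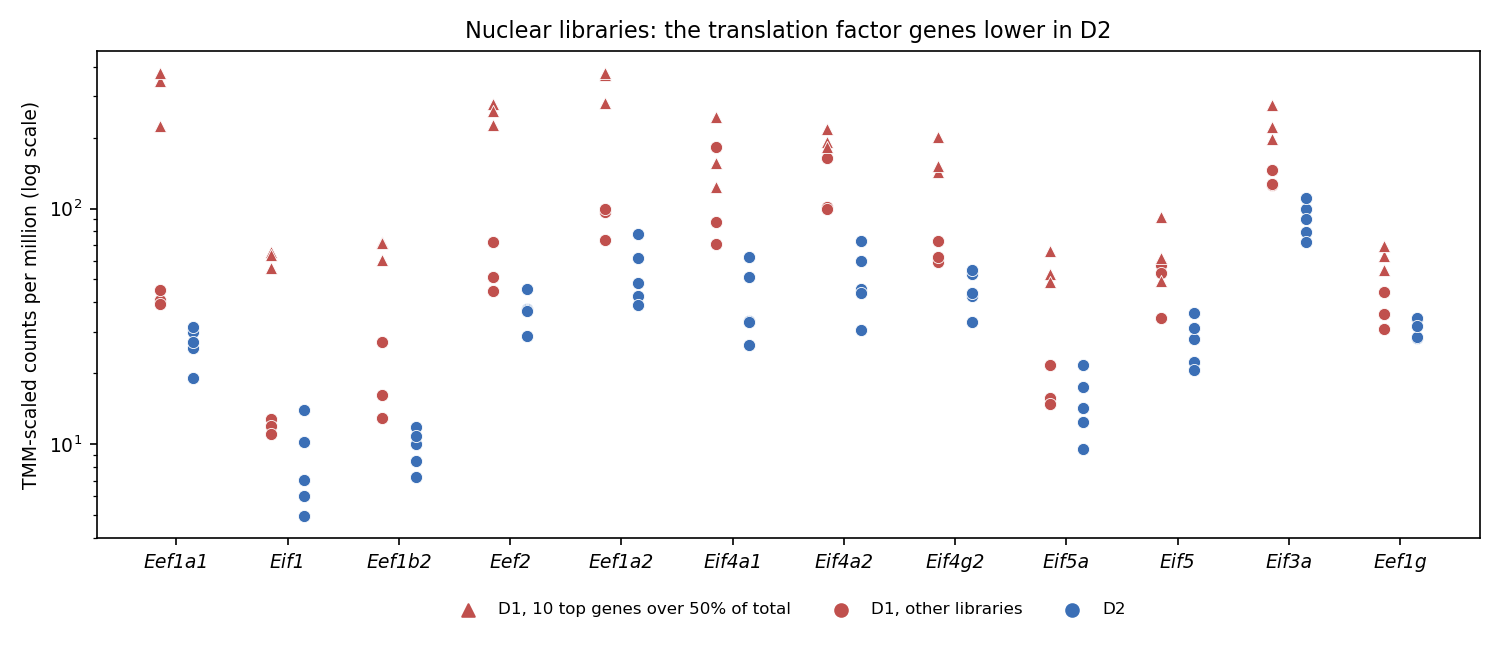
TMM-scaled CPM, on a log axis, of the 12 members called between nuclear D1 and nuclear D2 libraries. Red triangles are D1 numbers 1, 5 and 6, red circles the other D1 libraries and blue circles D2. The triangles lie above the other red points in 10 of 12 genes. The remaining red points also lie above all blue ones in 6 genes, Eif4a2, Eif4a1, Eif3a, Eef1a1, Eef1b2 and Eif4g2.

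D1 numbers 1, 5 and 6 were above the other 3 D1 libraries in 10 of the 12 genes. The other 3 lay above every D2 library in 6 of the 12. These 12 were called with the same libraries, and such separation was not counted over all genes. In a fit without the libraries that had over 50% of their total in 10 genes, chosen after seeing the data, 3 members were called, all lower in D2, where 5.2% of all genes were called. These were Eif4a1 (log2 -1.42, adjusted p = 0.0448), Eif4a2 (-1.25, adjusted p = 0.0448) and Eif3a (-0.57, adjusted p = 0.0488). Eef1a1 then had -0.64 ± 0.17 (adjusted p = 0.0505) and Eef1a2 -0.77 ± 0.21 (adjusted p = 0.0533), and the members' median was -0.05. The receptor genes and the endothelial and microglial markers also moved with cell type in nuclei, while the sums of the other marker lists overlapped. All 5 endothelial markers were detected, and the microglial markers summed to 174 to 397 CPM in D1 against 400 to 579 in D2. The astrocyte markers summed to 248 to 557 against 450 to 571, and the oligodendrocyte markers to 729 to 1769 against 731 to 1488. The interneuron markers summed to 78.9 to 192 against 139 to 233, and the MSN markers to 3454 to 5994 against 2128 to 4515. Their part in the result was not tested. Subtracting the receptor gene level per base from each count left 12 members called, 11 lower and 1 higher, 10 of them among the 12 above.

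The whole cell set held few calls. Of 52 members tested 1 was called, lower in D2, where 1.14% of 16352 genes were called and 0.783% were called lower. This was Eif3j1, the loosely bound eIF3 subunit (chr2:122028546-122056598, plus strand), which was at 41.5, 42.3, 53.7, 58.5, 56.7, 52.5, 42.7 and 38.7 CPM in the D1 libraries and at 34.7, 23.6, 27.4, 25.1, 38.5 and 22.2 CPM in the D2 libraries. The groups touched without overlapping (log2 -0.76 ± 0.17, adjusted p = 0.0381). Reads could be split with its near-identical copy Eif3j2. With the repeat column as a library of its own 5 members were called, and with the lane column 7, all lower in D2. By the column names both settings count a mouse more than once, so these calls add no support. The call of Eif3j1 held in 3 of 14 fits that left out 1 library, those without D2 number 1, 2 or 5, and the adjusted p ranged from 0.0217 to 0.220 over the 14. It was also lost with DESeq2 size factors and without the libraries of high background by the receptor genes, where 0 members were called. By unadjusted p 21 members were under 0.05, and by DESeq2 6 were called. The fitted value was below 0 for 46 of 52 members, with a median of -0.41 against -0.09 for all genes. Eef1a1 came next at -1.21 ± 0.31 on the log2 scale (adjusted p = 0.0525). Eif4a2 had -0.81 ± 0.34 (adjusted p = 0.248), with 130 to 732 CPM in D1 and 164 to 443 CPM in D2, each scaled within the whole cell set.

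On tagged ribosomes the members were nearly level between cell types. In male mice 1 of 44 members tested was called, lower in D2, where 9.3% of 6784 genes were called and 5.22% were called lower. Eif5a2, the tissue-restricted copy of eIF5A (chr3:28781276-28798846, plus strand), was at 2.63, 3.55, 4.04, 3.14, 3.28 and 2.81 CPM in D1 numbers 1 to 6 and at 2.21, 2.57, 2.45, 2.74, 3.01 and 2.37 CPM in D2. The groups overlapped (log2 -0.35 ± 0.11, adjusted p = 0.0492), and the call held in 3 of 12 fits that left out 1 library, those without D1 number 1 or 6 or D2 number 5 (adjusted p from 0.0137 to 0.165). Eef1a2 did not overlap, at 96.0 to 102 CPM in D1 and 83.7 to 95.2 CPM in D2, and had -0.13 ± 0.04 (adjusted p = 0.0525). Eif4a2 was at 31.0 to 37.6 CPM in D1 and 32.8 to 36.8 CPM in D2, a log2 difference of -0.02 ± 0.05 (adjusted p = 0.892). All 44 lay between -0.35 and 0.28 on the log2 scale with a median SE of 0.077, against 0.26 in the nuclear set. In female mice edgeR called 0 of 45 members where 4.52% of 7057 genes were called, 4 members had an unadjusted p under 0.05 and DESeq2 called 1. The lowest p-values were those of Eif4g3 (-0.16 ± 0.05, adjusted p = 0.0887) and Eef1a2 (-0.14 ± 0.05, adjusted p = 0.114).

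**Figure D4:**
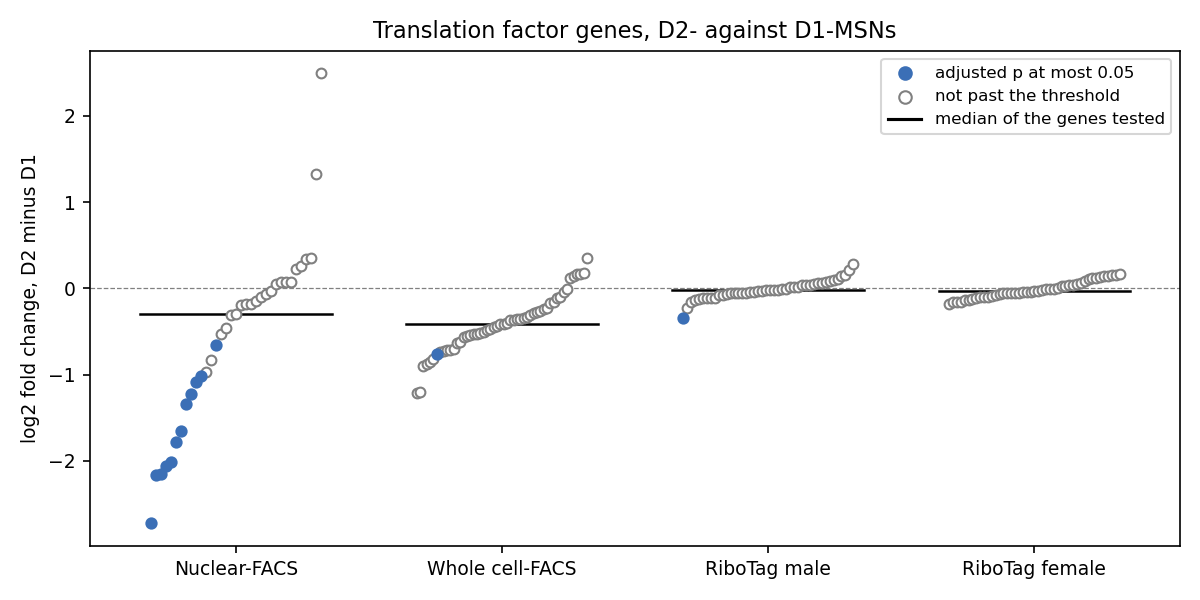
Log2 fold change, D2 minus D1, of the members tested in each dataset. Filled points had an adjusted p of at most 0.05 (12 nuclear, 1 whole cell, 1 RiboTag male and 0 RiboTag female), open points did not, and lines are medians. The nuclear values run from -2.72 to 2.50 and the RiboTag male values from -0.35 to 0.28.

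Female and male RiboTag libraries were compared for sex. Of 46 members tested none was called by edgeR, where 0.0837% of 7172 genes were called, and none had an unadjusted p under 0.05 or was called by DESeq2. The lowest p-values were those of the helicase cofactor Eif4b (log2 0.07 ± 0.03, adjusted p = 0.605) and Eif3f (0.15 ± 0.08, adjusted p = 0.649). The D2 minus D1 difference was tested between the sexes with 0 of 46 members called by edgeR (0.0% of all genes), 0 with an unadjusted p under 0.05 and 0 called by DESeq2.

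The difference between cell types was itself compared between methods. For nuclear against whole cell libraries, 23 of 64 members had a more negative D2 minus D1 difference in nuclei and none a more positive one, where 21.9% of all genes were called and 15.8% in the negative direction. Among these were Eif4a1 (-3.21 on the log2 scale), Eef1a2 (-3.15), Eef2 (-2.99), Eef1a1 (-2.84) and Eif4a2 (-2.10 ± 0.57, adjusted p = 0.00788). Without the 4 libraries with over 50% of their total in 10 genes, nuclear D1 numbers 1, 5 and 6 and whole cell D2 number 2, the count was 3, where 12.0% of all genes were called. For RiboTag against whole cell libraries 0 members were called by edgeR or DESeq2 (0.12% of all genes by edgeR), and 1 had an unadjusted p under 0.05. The interaction values rest on 1 scaling over all male libraries, RiboTag included. Relative to the median of all genes tested, the members' median was -0.33 in the nuclear fit, -0.32 in the whole cell fit and -1.01 in the interaction. The members tested differed, at 35, 52 and 64, and what the joint scaling contributed was not tested. Scaled within each method, fits leaving out 1 library gave Eif4a2 -1.83 to -1.51 in nuclei and -1.06 to -0.54 in whole cells. Eif4e had -0.18 to 0.003 in nuclei and -0.41 to -0.10 in whole cells. The 23 calls were made on the joint scale only. On that scale the nuclear and whole cell levels compared differently in each cell type. In D1 alone 10 members were called, 5 higher and 5 lower in nuclei (19.2% of all genes called), and in D2 alone 34, 1 higher and 33 lower (20.2%). Eef1a1 had a log2 fold change of 0.40 in D1 and -2.44 in D2, Eef1a2 0.24 and -2.91, Eif1 2.35 and -0.38, Eif4a1 2.12 and -1.09, and Eif4a2 -1.04 and -3.14.

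The balance of paralogs was read as a ratio within each library, which does not depend on its scaling. Per kilobase of span, Eef1a2 over Eef1a1 was 1.62 ± 0.46 in whole cell D1 (SD, n = 8, range 0.962 to 2.55) and 3.67 ± 1.33 in whole cell D2 (n = 6, range 1.64 to 5.62). The ranges overlapped, the log2 difference was 1.13 and the exact permutation p was 0.002, or 0.016 adjusted over the tests of both ratios. Leaving out any 1 library kept the log2 difference between 0.99 and 1.34. In nuclei the ratio was 1.91 ± 0.80 (n = 6) and 2.48 ± 1.30 (n = 5, exact permutation p = 0.394). On tagged ribosomes of male mice it was 1.91 ± 0.16 and 1.81 ± 0.12 (n = 6 each, exact permutation p = 0.310), and of female mice 1.95 and 1.84. Eif4a2 over Eif4a1 was 7.59 ± 1.63 in whole cell D1, 6.37 ± 5.86 in whole cell D2, 0.974 ± 0.25 in nuclear D1, 1.01 ± 0.08 in nuclear D2 and 3.78 and 3.82 in RiboTag male D1 and D2, and over all libraries no cell type difference passed the exact permutation test. Without whole cell D2 number 6, whose ratio of 17.8 was far above the rest, the whole cell log2 difference was -0.99 and passed (exact permutation p = 0.00777, adjusted p = 0.0311). With snoRNA counts subtracted the nuclear ratios were 1.88 ± 0.57 (n = 6) and 1.13 ± 0.32 (n = 5), with an exact permutation p of 0.026 and an adjusted p of 0.104. Reads of Eef1a1 and Eif4a1 can be split with near-identical pseudogenes, because fragments that align to several places were left out.

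**Figure D5:**
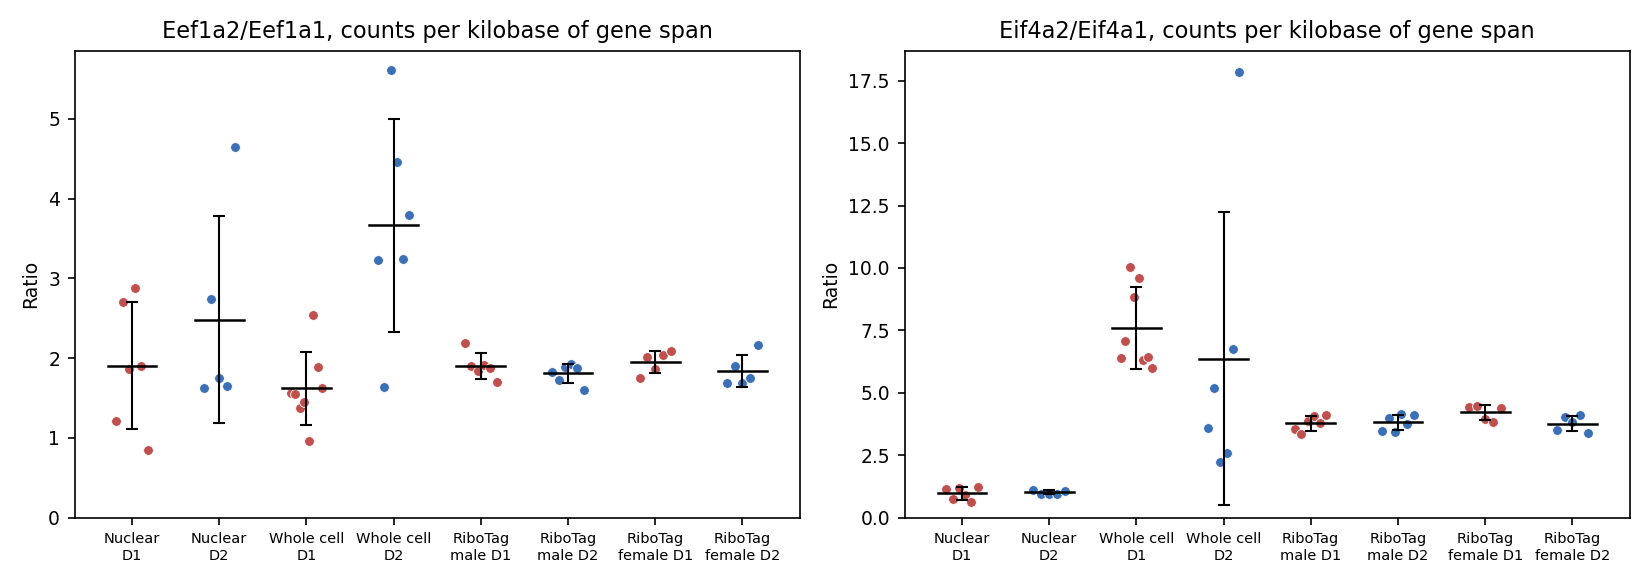
Ratio of counts per kilobase of span for Eef1a2 over Eef1a1 and Eif4a2 over Eif4a1 in each library, with mean and SD by group (red D1, blue D2). Whole cell D2 stands at 3.67 against 1.62 in whole cell D1 for Eef1a2 over Eef1a1, and Eif4a2 over Eif4a1 is near 1 in nuclei.

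Genes that act beside these factors were read from lists that held no member. Of 25 genes for termination, recycling and control of translation, 19 were higher and 4 lower in RiboTag than in whole cell libraries, where 24.6% of all genes were higher and 63.4% lower. Among them were Pabpc1, the poly(A)-binding protein, at 2.72 on the log2 scale, Larp1 at 2.02, the release factor gene Gspt1 at 1.63 and Mtor at 1.01. Their median was 1.01, close to the 1.06 of the members. In nuclei 2 of the 13 tested were lower in D2, Pabpc1 (-1.24) and Cyfip2 (-0.55), and none was higher, a share near the 10.4% of all genes that were lower there. Of 20 cytosolic tRNA synthetase genes, 15 were higher and 1 lower in RiboTag than in whole cell libraries, against the same 24.6% and 63.4% of all genes. In nuclear against whole cell libraries 12 were lower and 0 higher, where 12.8% of all genes were lower and 7.23% higher. Between cell types 1 of 10 tested was called in nuclei, Wars (0.93, higher in D2), 1 of 18 in whole cells, Tars (-1.03, lower in D2), and 1 of 15 in male RiboTag libraries, Gars (-0.23, lower in D2), where 16.1%, 1.14% and 9.3% of all genes were called. Of 8 mitochondrial factors 4 were higher and 2 lower in RiboTag, with a median of 0.08.

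Many mRNAs of the translation apparatus begin with a pyrimidine tract, and the annotated starts of the members were read for one. In the RefSeq promoter table of GRCm38.p6, which held 48 of the 64 members, a start of C followed by at least 4 C or T was found in 1 member (2.08%) and in 3.01% of 27025 genes. Allowing it to start within 10 bases of the annotated start gave 16 of 48 (33.3%) against 34.4% of all genes. The 20 bases before the start and the first 5 transcribed bases, in capitals, are shown for the member with the tract and for the eEF1A and eIF4A pairs.
Eif3f (chr7:108934395-108934419, plus strand): gctcttctgttctaggctctCTCTC
Eef1a1 (chr9:78481720-78481744, minus strand): cgtgtgctggctccgccctcTTCCC
Eef1a2 (chr2:181157011-181157035, minus strand): gtttttctctcctggtctgcGTTCT
Eif4a1 (chr11:69672419-69672443, minus strand): cgcctacaaagtaacgtcacGTCGA
Eif4a2 (chr16:23107448-23107472, plus strand): cagggccgcggaaaccccgtAGGAG
These letters at the annotated starts say nothing of where transcription began in these cells.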

How the data were processed

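Ribo-depleted total RNA was made into paired-end libraries with a stranded SMARTer kit. According to the authors' notes, reads were aligned to GRCm38 with HISAT2 2.0.5, and featureCounts gave the deposited counts, whole numbers of fragments over exons and introns, without strand, with overlapping genes each credited and multi-mapping fragments left out. A repeat column and a lane column were summed with their sample, which gave 47 libraries from 49 columns. Gene types and spans came from the GENCODE annotation of GRCm38 (52489 genes matched), and promoter starts from RefSeq. The edgeR 4.0.16 quasi-likelihood test (R 4.3.3, TMM scaling, Benjamini-Hochberg adjustment over all genes tested, threshold 0.05) was run within each method for D2 minus D1, over all male libraries for methods, and over RiboTag libraries for sex. Filters were over 1 CPM in at least 2 libraries and, within methods, 1 FPKM over the span in at least 1 library (0.1 in at least 2 for RiboTag). Log2 fold changes are D2 minus D1, so negative is lower in D2. Shares and ratios were compared by two-sided exact permutation tests (scipy 1.17.1). DESeq2 1.42.0 and the other alternatives are given in the closing section. In data simulated from the nuclear libraries over 9228 genes, 32% of 2-fold and 71% of 4-fold changes were called, over 16352 genes of the whole cell libraries 40% and 73%, and over 6784 genes of the male RiboTag libraries 100% and 100%. Named genes were Eif4a2, the paralog sets, hosts of small RNA genes, up to 8 called members per cell type comparison and the 4 farthest each way per method comparison, and Eif4e1b, regulators and the remaining members named were added after their values were seen. The members and lists were chosen with earlier results of these data known.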

Additional observations from a re-analysis of the deposited data

Results flagged for a closer look

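In groups of 4 to 10 libraries, 50 groups of levels, shares and ratios were examined for a library far from the rest. The levels were those of Eif4a2 and of named members called between cell types. Of the 50 groups 2 had such a library, where chance gives about 1 in 20. Male RiboTag D2 number 4 had a snoRNA share of the Eif4a2 count of 0.354%, with the next highest library at 0.0897%. Whole cell D2 number 6 had an Eif4a2 to Eif4a1 ratio of 17.8, with the next highest at 6.76.

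For 15 of the members named, edgeR's test of the interaction was past the threshold. Scaled over all male libraries, their D2 minus D1 difference was lower in nuclear than in whole cell libraries, an order that need not hold with each method scaled alone. On the log2 scale the values were -3.21 for Eif4a1, -3.15 for Eef1a2, -2.99 for Eef2, -2.84 for Eef1a1, -2.72 for Eif1, -2.29 for Eif5a, -2.22 for Eef1b2, -2.16 for Eif4g2, -2.10 for Eif4a2, -1.81 for Eif5, -1.67 for Eif3a, -1.47 for Eif4g1, -1.32 for Eif4b, -1.04 for Eif4e and -0.81 for Eif4g3. Without the 4 libraries with over 50% of their total in 10 genes (nuclear D1 numbers 1, 5 and 6 and whole cell D2 number 2), the count of members called was 3 in place of 23, and over all genes 12.0% in place of 21.9% were called. What each of these libraries contributed was not tested. With each method scaled alone, fits leaving out 1 library gave Eif4e -0.18 to 0.003 in nuclei and -0.41 to -0.10 in whole cells. For Eif4a2 they gave -1.83 to -1.51 in nuclei and -1.06 to -0.54 in whole cells.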

How the results depend on the processing

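Under the alternatives 286 summary values stayed on their side of the threshold, or within 1.5 times for counts, 45 moved and 1 came to pass the threshold, and no called member changed sign under the other scalings. The nuclear count of 12 was 33 without the FPKM filter, 31 without any filter, 34 with FPKM over summed exon length and 3 without the libraries with over 50% of their total in 10 genes. The whole cell count of 1 was 6 by DESeq2. It was 0 with DESeq2 size factors, without the FPKM filter, without any filter, with summed exon length and without libraries of high background. It was 5 with the repeat column and 7 with the lane column as a library of its own, which by name counts a mouse more than once. Without the libraries with over 50% in 10 genes it was 4. The RiboTag male count of 1 was 0 without the FPKM filter, without any filter, with summed exon length and at the study's thresholds, and 2 with background subtracted, and the RiboTag female count of 0 was 1 by DESeq2. Nuclear against whole cell called 35 members and 10 in D1 alone. The interaction of nuclear and whole cell called 23, 15 without whole cell libraries of high background and 3 without the libraries with over 50% in 10 genes. The whole cell Eif4a2 to Eif4a1 log2 difference of -0.62 was -0.99 without D2 number 6, now past the threshold, and up to -0.39 without another library. Leaving out 1 library at a time gave 9 to 16 nuclear, 0 to 4 whole cell, 0 to 2 RiboTag male, and 0 to 0 RiboTag female calls. In the fit over all male libraries only the 5 nuclear D2 libraries were left out in turn, with 31 to 34 nuclear against whole cell and 17 to 24 interaction calls. Adding Gm49346, which overlaps Snora81 and so repeats its fragments, gave Eif4a2 shares of 56.4% in nuclear D1, 47.3% in nuclear D2, 3.51% in whole cell D1 and 22.3% in whole cell D2. Reversed values were those of Eif4e2 between nuclear D2 and D1, 0.22 as reported, -0.92 without the FPKM filter, -0.90 without any filter and -0.87 with summed exon length. They were also, in D1 alone, nuclear against whole cell, Eef1a1 (0.40), Eef1a2 (0.24) and Eif4g1 (0.076), in D2 alone Eif1 (-0.38), and in D1 alone, RiboTag against nuclear, Eif4a1 (-0.44). The cause of these changes was not tested. The low depth of some nuclear libraries limits the members at a few counts.

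Replicate numbers are shared by the groups, but same-numbered libraries correlated at -0.33 to 0.24 in their deviations from group means, so the numbers were not taken as pairs. With the replicate block the nuclear count was 0, and the block left 1 call in the whole cell set (0 shared with the fit without it), 1 in RiboTag male, 0 in RiboTag female and 35, 55 and 61 in the method comparisons. Libraries correlated best with their own number in nuclear number 2 and in RiboTag male numbers 2 and 3 only, a hint from the data and not from the design.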
